A study of Homo sapiens with 6 samples.

Results

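The 10 genes described here are targets of the transcription factor NF-κB that were measured in HCT116, a human line derived from colorectal cancer: the feedback genes NFKBIA, NFKB2, RELB, TNFAIP3 and BIRC3, the adhesion receptor gene ICAM1, and the chemokine genes CXCL1, CXCL2, CXCL3 and CXCL8. They were chosen by name, with earlier results of these data known. All 10 were found among the 56632 genes of the tables and passed the filter on low counts. Sequencing of poly(A) RNA covered cells transfected with a pool of siRNAs against Matrin3 (siMatrin3, 3 libraries) and cells given a negative control siRNA (siCTRL, 3 libraries). Matrin3, encoded by MATR3, is a nuclear RNA-binding protein. Cells of both groups were transfected 2 times, 72 hours apart. The labels give 48 hours after the second transfection, whereas the study's methods place a reseeding of the cells at that time and the RNA extraction later. The labels name no cytokine or other stimulus of the pathway. The study describes the libraries as biological triplicates of a single cell line.

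NF-κB dimers of Rel-family subunits are held in the cytoplasm by inhibitor (IκB) proteins until signals from tumour necrosis factor, interleukin or Toll-like receptors activate the IκB kinases, which mark the inhibitors for degradation. The freed dimers bind κB sites in promoters and induce cytokines and adhesion molecules, and they also induce their own inhibitors, which is why NFKBIA and TNFAIP3 are called feedback genes. In the intestinal epithelium the pathway is known for its part in inflammation and in cell survival.

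The libraries held 40808173 to 54185650 expected counts, which are read counts estimated by the authors' software with shared reads divided between genes. MATR3 had 95.2, 112 and 111 TPM (a length-scaled transcript level with the same total in each library) in the siMatrin3 libraries, against 186, 180 and 176 TPM in the siCTRL libraries. The knockdown was thus seen in all 3 siMatrin3 libraries and was partial, with a log2 fold change of -0.93 ± 0.065 (SE) and an adjusted p of 7.67e-05 (edgeR quasi-likelihood test, Benjamini-Hochberg over all genes tested). Among markers of other cell types, CD68 was the only one of 7 leukocyte genes, COL1A1 the only one of 6 fibroblast genes and none of 4 endothelial genes to reach 1 TPM in a library, while 6 of 8 epithelial genes did. PTPRC, which defines leukocytes, was listed at 0 in every library. The summed leukocyte markers ranged from 13.9 to 19.7 TPM in siMatrin3 and from 12.8 to 18 TPM in siCTRL. The summed epithelial markers ranged from 2211 to 2427 TPM in siMatrin3 and from 2467 to 2646 TPM in siCTRL, and the part of this in the results below was not tested.

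For 9 of the 10 genes, a promoter stretch is given first, picked for its matches to a κB-type pattern. Likeness between the stretches follows in part from that choice. They come from the RefSeq promoter table (GRCh38.p14, which is not the hg19 build of the expression tables). RELB was named only. Each line holds 60 bases that end before the transcription start, read 5′ to 3′ on the gene's strand, and capitals mark matches to GGNNNTTCC on either strand, where matches on the 2 strands may overlap and share letters.
BIRC3 (chr11:102317259-102317318, plus strand): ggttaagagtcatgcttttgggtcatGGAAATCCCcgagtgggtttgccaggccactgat
TNFAIP3 (chr6:137867172-137867231, plus strand): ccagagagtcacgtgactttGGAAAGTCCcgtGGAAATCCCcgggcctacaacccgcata
NFKBIA (chr14:35404797-35404856, minus strand): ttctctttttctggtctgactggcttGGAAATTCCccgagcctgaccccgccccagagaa
NFKB2 (chr10:102394460-102394519, plus strand): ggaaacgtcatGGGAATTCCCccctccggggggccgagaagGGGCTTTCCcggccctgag
ICAM1 (chr19:10270908-10270967, plus strand): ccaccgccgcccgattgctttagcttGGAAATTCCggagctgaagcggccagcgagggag
CXCL1 (chr4:73869302-73869361, plus strand): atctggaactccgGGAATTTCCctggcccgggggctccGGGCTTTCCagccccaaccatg
CXCL2 (chr4:74099227-74099286, minus strand): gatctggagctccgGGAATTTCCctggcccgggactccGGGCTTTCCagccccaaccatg
CXCL3 (chr4:74038721-74038780, minus strand): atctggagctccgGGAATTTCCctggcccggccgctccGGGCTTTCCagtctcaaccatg
CXCL8 (chr4:73740452-73740511, plus strand): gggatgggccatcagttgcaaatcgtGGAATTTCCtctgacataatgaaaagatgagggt

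All 9 genes with a promoter in the table held at least 1 match within 250 bases before to 50 bases after a start, against 23.5% of the 27305 genes in the table, and NFKB2 had matches in 2 of its 3 windows. The letters searched were chosen with these promoters and the results known, and a match is a description and not a binding site. BIRC3 and TNFAIP3 carried the same 9 letters, GGAAATCCC, which begin at position -199 in BIRC3 and at -55 in TNFAIP3, counted from the transcription start. CXCL1, CXCL2 and CXCL3 shared GGAATTTCC, from position -78, -77 and -78, and GGGCTTTCC, from -53 in each. CXCL8 had GGAATTTCC from -91, and ICAM1 and NFKBIA had GGAAATTCC from -186 and -81. Outside the stretches shown, NFKBIA also had GGACTTTCC from -242. A further window of NFKB2 had GGGGCTTCC from -176 and GGACTTTCC from -20.

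The question put to the expression data was whether these genes changed in level when Matrin3 was depleted. BIRC3 fell in siMatrin3 and was the only one of the 10 genes past the threshold of an adjusted p under 0.05. None of the 10 rose. Over all genes tested, 1849 of 16786 (11.0%) passed, 1002 (5.97%) lower and 847 (5.05%) higher in siMatrin3, so 1 of 10 was near the background. The log2 fold change was negative for 9 of the 10, with a median of -0.12, and it was negative for 8447 of the 16786 genes, with a median of 0.00. CPM (counts scaled to library size) of the groups did not overlap for BIRC3, CXCL1 and CXCL2, 3 of the 10, against 31.0% of all genes tested.

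**Figure D1:**
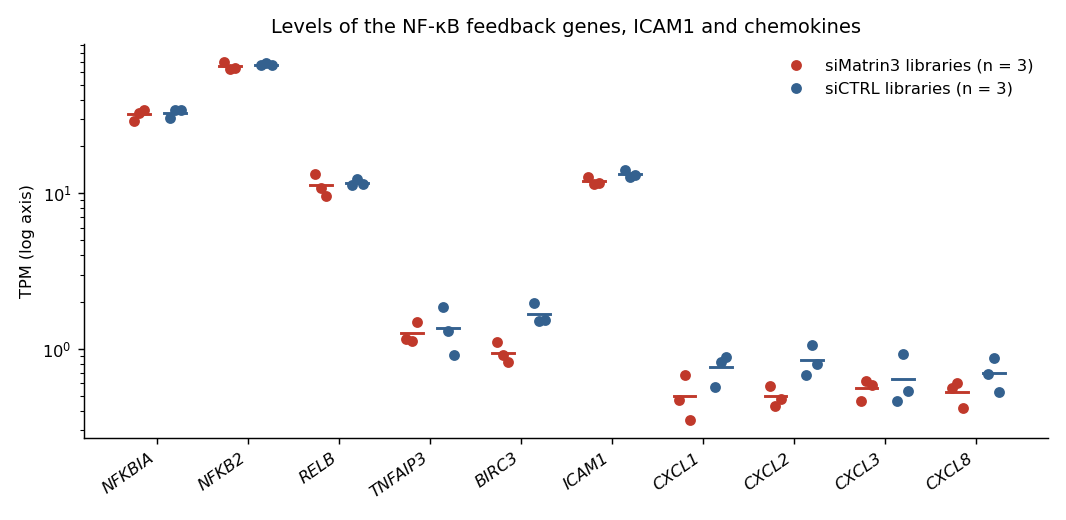
Level of each gene in TPM (log axis), with a point for each library, siMatrin3 in red on the left and siCTRL in blue on the right, and the group mean as a line. NFKB2 and NFKBIA were near 65 and 32 TPM in both groups, the chemokines were below 1.1 TPM in all 6 libraries, and the BIRC3 points of the groups do not overlap.

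By level, the genes fell into a high, a middle and a low set in both groups. NFKB2 averaged 65.5 ± 3.87 TPM in siMatrin3 and 67.3 ± 1.22 TPM in siCTRL (SD, n = 3 each), followed by NFKBIA, ICAM1 and RELB. ICAM1 and RELB overlapped in siMatrin3, where ICAM1 spanned 11.5 to 12.7 TPM and RELB 9.56 to 13.4 TPM, and did not overlap in siCTRL. TNFAIP3 and BIRC3 lay near 1 TPM, although the lowest TNFAIP3 library of siCTRL, at 0.92 TPM, overlapped CXCL2. BIRC3 was below every TNFAIP3 value in siMatrin3, at 0.82 to 1.10 TPM against 1.13 to 1.5 TPM, whereas in siCTRL BIRC3 had the higher mean and the ranges overlapped. The 4 chemokines came last, between 0.35 and 0.68 TPM in siMatrin3 and between 0.46 and 1.06 TPM in siCTRL, and neighbouring chemokines in that order overlapped in both groups.

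BIRC3 (ENSG00000023445) encodes cIAP2, a ubiquitin ligase that is recruited to tumour necrosis factor receptor complexes and limits cell death. It had 1.10, 0.92 and 0.82 TPM in the siMatrin3 libraries, against 1.98, 1.51 and 1.54 TPM in the siCTRL libraries. The highest siMatrin3 library was below the lowest siCTRL library. Those levels rest on 210, 152 and 136 expected counts in siMatrin3 and 309, 239 and 258 in siCTRL. Summed over libraries, that is 498 counts (95% exact Poisson interval 455 to 544, counting error only) in siMatrin3 and 806 counts (751 to 864) in siCTRL. The log2 fold change was -0.69 ± 0.12 (SE), so that the level fell by 38.1% in siMatrin3, with an adjusted p of 0.0055 (edgeR quasi-likelihood test). Of the genes called lower, 22.7% had a log2 fold change at least as low. The call was kept in 14 of 16 other fits and ended with limma on log2(TPM + 1) or log2(TPM + 0.1), where the log2 differences were -0.46 and -0.76 and the adjusted p values 0.174 and 0.173. Those fits called 133 and 186 genes in all. On the strand opposite to BIRC3, the GENCODE release 44 annotation places an exon of ENSG00000288528, which is not a row of the tables, and the strand setting of the counting is not given in the sources used here.

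**Figure D2:**
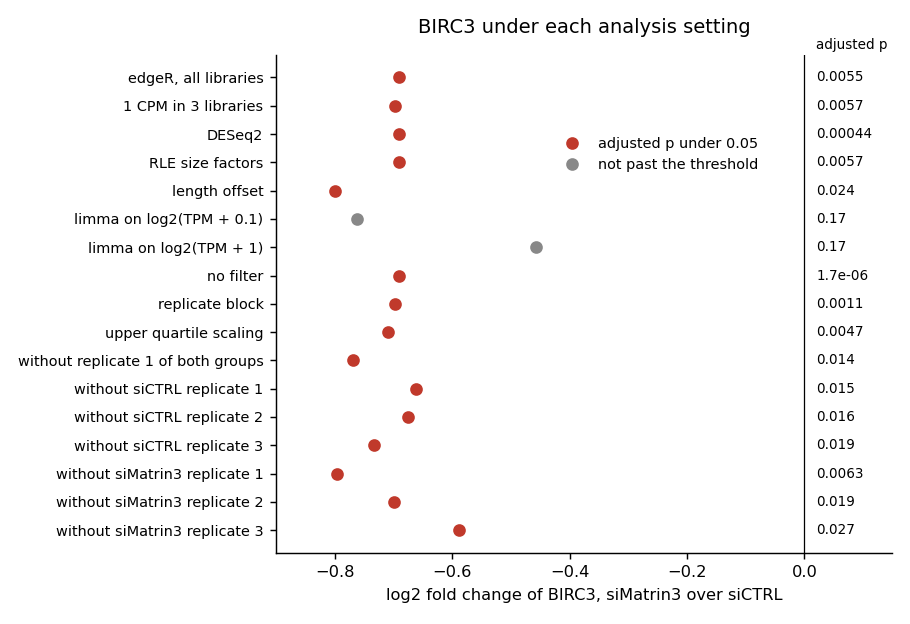
Log2 fold change of BIRC3, siMatrin3 over siCTRL, under each fit, with the adjusted p at the right and red points where it was under 0.05. All points lie below 0, from -0.80 with the length offset to -0.46 with limma on log2(TPM + 1), and leaving out any library gave adjusted p values up to 0.0273.

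BIRC2, which encodes the related ligase cIAP1, was the closest comparison. It had 2940, 2243 and 2412 expected counts in siMatrin3 and 3309, 2370 and 2852 in siCTRL. Its log2 fold change was -0.16 ± 0.046 (SE) with an adjusted p of 0.0542 (edgeR), just outside the threshold. It passed with a filter of 1 CPM in 3 libraries (0.0338), with no filter (0.0412), with upper quartile scaling (0.0295) and without siMatrin3 replicate 1 (0.0426). The difference in response between BIRC2 and BIRC3 was not tested.

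The other 4 feedback genes did not pass the test. NFKBIA (ENSG00000100906), which encodes the inhibitor IκBα, had 29.1, 33.0 and 34.5 TPM in siMatrin3 against 30.4, 34.2 and 34.5 TPM in siCTRL. Replicate 1 was the lowest library of each group, and the groups overlapped throughout. The log2 fold change was -0.04 ± 0.060 (SE) with an adjusted p of 0.751 (edgeR). TNFAIP3 (ENSG00000118503), which encodes the ubiquitin-editing enzyme A20, had 1.16, 1.13 and 1.5 TPM in siMatrin3 against 1.87, 1.3 and 0.92 TPM in siCTRL. The siCTRL libraries were the more spread and enclosed all 3 siMatrin3 values. Its log2 fold change was -0.05 ± 0.12 (SE), with an adjusted p of 0.827 (edgeR). WAKMAR2, which overlaps TNFAIP3 on the other strand, had at most 8 expected counts in a library.

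NFKB2 (ENSG00000077150) encodes p100, the precursor of the p52 subunit and itself an inhibitor. It had 70.0, 62.9 and 63.6 TPM in siMatrin3 against 66.8, 68.7 and 66.4 TPM in siCTRL, with a log2 fold change of -0.01 ± 0.039 (SE). RELB (ENSG00000104856) encodes the subunit that pairs with p52 in the non-canonical pathway. Its levels were 13.4, 10.8 and 9.56 TPM in siMatrin3 and 11.3, 12.4 and 11.4 TPM in siCTRL, with a log2 fold change of 0.03 ± 0.063 (SE). For both genes the siMatrin3 libraries spread to either side of the siCTRL libraries, and the adjusted p values were 0.868 and 0.840 (edgeR). The fitted change of RELB turned negative, -0.04 to -0.07, in fits that use transcript length.

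ICAM1 (ENSG00000090339) encodes the endothelial and epithelial ligand of leukocyte integrins. It had 12.7, 11.5 and 11.7 TPM in siMatrin3 against 14.2, 12.8 and 13.0 TPM in siCTRL. All 3 siMatrin3 libraries were below all siCTRL libraries on this scale, but the CPM overlapped, with 27.9 to 32.0 CPM in siMatrin3 and 31.3 to 35.2 CPM in siCTRL. The log2 fold change was -0.15 ± 0.060 (SE), with an unadjusted p of 0.0296 and an adjusted p of 0.14 (edgeR), which did not pass. ICAM1 was the only one of the 10 genes with counts that were not whole, up to 0.43 of a read, and its antisense neighbours ICAM4-AS1 and LIMASI had at most 16 and 4 expected counts in a library.

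**Figure D3:**
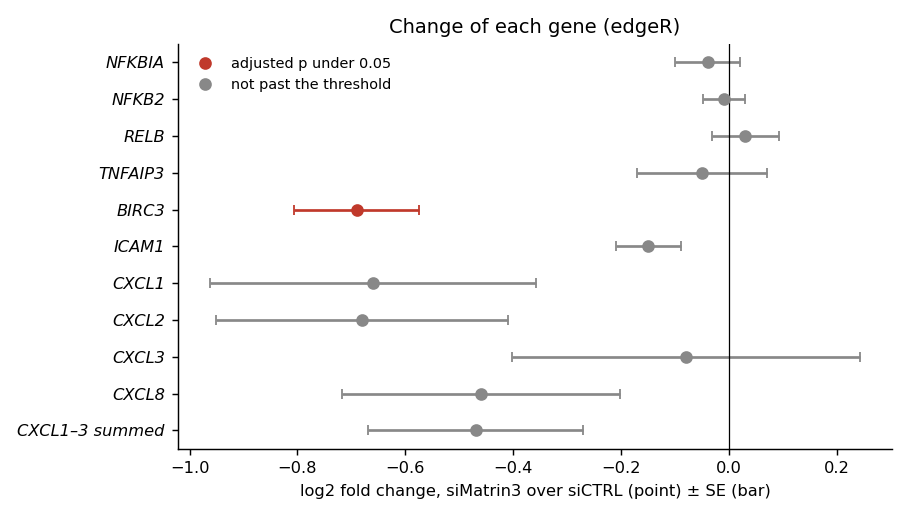
Log2 fold change of each gene and of CXCL1, CXCL2 and CXCL3 summed, siMatrin3 over siCTRL, with bars for ± 1 SE and red where the adjusted p was under 0.05. BIRC3 is the only red point, at -0.69, and the chemokines have SE of 0.26 to 0.32 against 0.039 to 0.12 for the other genes.

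The chemokines attract neutrophils through the receptors CXCR1 and CXCR2, and all 4 had low counts, so their expected counts are given. CXCL1 (ENSG00000163739) had 19, 15 and 12 counts in siMatrin3 against 20, 23 and 30 in siCTRL. CXCL2 (ENSG00000081041) had 22, 15 and 15 counts in siMatrin3 against 25, 28 and 30 in siCTRL. Every siMatrin3 library was below every siCTRL library for both genes in counts and in CPM, whereas the TPM of CXCL1 overlapped, at up to 0.68 TPM in siMatrin3 and from 0.57 TPM in siCTRL. The log2 fold changes were -0.66 ± 0.30 for CXCL1 and -0.68 ± 0.27 for CXCL2 (SE), about as large as that of BIRC3, with adjusted p values of 0.196 and 0.143 (edgeR), so neither passed. The counts summed over libraries were 46 (95% exact Poisson interval 33.7 to 61.4) in siMatrin3 and 73 (57.2 to 91.8) in siCTRL for CXCL1, and those intervals overlap.

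CXCL3 (ENSG00000163734) did not share that shape, with 18, 24 and 22 counts in siMatrin3 against 21, 28 and 19 in siCTRL. The groups overlapped, and the log2 fold change was -0.08 ± 0.32 (SE) with an adjusted p of 0.907 (edgeR). The difference in response between CXCL3 and CXCL1 or CXCL2 was not tested. CXCL8 (ENSG00000169429), the gene of interleukin-8, had 38, 27 and 24 counts in siMatrin3 against 45, 45 and 32 in siCTRL. Its groups overlapped between siMatrin3 replicate 1 and siCTRL replicate 3, and the log2 fold change was -0.46 ± 0.26 (SE) with an adjusted p of 0.296 (edgeR).

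CXCL1, CXCL2 and CXCL3 are closely related genes. Their coding sequences in GENCODE release 44, 324 bases each, shared 90.7% to 94.4% of their letters between pairs, and the longest run shared by 2 transcripts was 55 to 97 bases. Their counts were whole, within 0.005, in every library, so no division of reads between the 3 shows in the tables, and the 3 were also summed. The sum was 59, 54 and 49 expected counts in siMatrin3 against 66, 79 and 79 in siCTRL, with each siMatrin3 count below each siCTRL count, although after scaling to library size siMatrin3 replicate 2 (1.25 CPM) lay level with siCTRL replicate 1 (1.25 CPM). The log2 fold change of the sum was -0.47 ± 0.20 (SE), with an unadjusted p of 0.0396 and an adjusted p of 0.167 (edgeR), and it did not pass in any of the other fits, whose adjusted p values ran from 0.0823 to 0.417.

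The tables also give a transcript length for each gene, weighted by the estimated abundance of its isoforms. It can move if the mix shifts between isoforms of unlike length, but not if their lengths are alike. Of the 6 genes with enough reads for the test, 0 passed with limma, whose unadjusted p was under 0.05 for 0 of the 6. Over all 11984 genes tested, 1 passed (0.00834%). For BIRC3 the weighted length was 4627 ± 177 bases in siMatrin3 and 4364 ± 567 bases in siCTRL (SD, n = 3 each), a log2 difference of 0.09 with an adjusted p of 0.984 (limma). For NFKBIA it was 1484 ± 24.6 bases in siMatrin3 and 1503 ± 19.7 bases in siCTRL.

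Around these targets, 124 other genes of the pathway were listed in 8 groups, 119 were found in the tables and 91 passed the filter. Of the 91, 8 fell and 2 rose in siMatrin3, which is 11.0% called, the same share as over all genes tested. The median log2 fold change of the 91 was -0.01. Of the 10 called, TNFAIP2 alone also passed with limma on log2 TPM, and MAP3K3, TANK, TNFRSF11A, CYLD and CFLAR did not pass with the length offset. Without replicate 1 of both groups, TANK and PTGS2 did not pass.

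**Figure D4:**
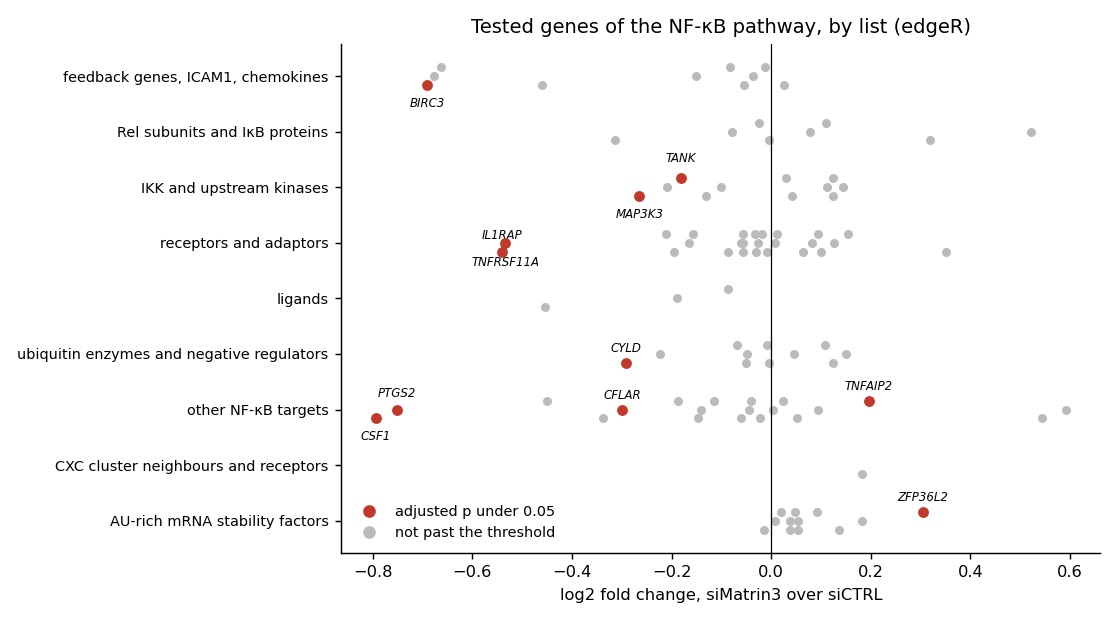
Log2 fold change, siMatrin3 over siCTRL, of each tested gene by list, with a point for each gene, red and named where the adjusted p was under 0.05. Of the pathway genes, 8 red points lie below 0 and 2 above, and no list lies wholly to one side apart from those with 3 or fewer tested genes.

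None of the 8 Rel subunits and IκB proteins passed. RELA and NFKB1, which encode the p65 and p50 subunits of the main dimer, were level. RELA had 49.7, 47.7 and 48.6 TPM in siMatrin3 against 48.6, 49.6 and 50.8 TPM in siCTRL, and NFKB1 had 14.3, 14 and 14 TPM in siMatrin3 against 14.1, 13.5 and 14.5 TPM in siCTRL. Their groups overlapped, with adjusted p values of 0.784 and 0.958 (edgeR). REL, the gene of the c-Rel subunit, had 362, 232 and 247 expected counts in siMatrin3 against 252, 125 and 215 in siCTRL, with a log2 fold change of 0.52 ± 0.16 (SE) and an adjusted p of 0.065 (edgeR). REL passed with DESeq2 (adjusted p = 0.0352), with no filter on low counts (0.000432) and without siCTRL replicate 1 (0.0408). NFKBIZ, which encodes a nuclear IκB protein, had a log2 fold change of -0.31 and an adjusted p of 0.0719, and passed with no filter (0.0486).

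Of 11 tested kinases and partners upstream, 2 passed, both lower. MAP3K3, a kinase upstream of the IκB kinases, had 7.78, 7.32 and 8.25 TPM in siMatrin3 against 9.15, 9.91 and 8.92 TPM in siCTRL (log2 fold change -0.27 ± 0.053 SE, adjusted p = 0.0122, edgeR). TANK, an adaptor that binds TRAF proteins, had 30.0, 30.6 and 29.7 TPM in siMatrin3 against 32.1, 32.4 and 32.1 TPM in siCTRL (log2 fold change -0.18 ± 0.040 SE, adjusted p = 0.0178, edgeR). Neither pair of groups overlapped. The MAP3K3 call ended without siCTRL replicate 3 (adjusted p = 0.0573), and the TANK call ended without siCTRL replicate 1 or 3 or siMatrin3 replicate 2 or 3 (0.0561, 0.0658, 0.0545 and 0.0582) and, with a log2 fold change of -0.08, with the length offset. CHUK and IKBKB, the genes of the catalytic IκB kinases, had log2 fold changes of 0.13 each and adjusted p values of 0.212 and 0.0734 (edgeR).

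Of 25 receptors and adaptors, 2 passed, again both lower. IL1RAP, the shared co-receptor of the interleukin-1 family, had 1.56, 1.38 and 1.48 TPM in siMatrin3 against 2.08, 1.97 and 2.64 TPM in siCTRL. TNFRSF11A, the gene of the receptor RANK, had 0.59, 0.76 and 0.72 TPM in siMatrin3 against 0.83, 0.95 and 1.14 TPM in siCTRL. The groups did not overlap for either gene, and the log2 fold changes were -0.54 ± 0.11 and -0.53 ± 0.11 (SE), with adjusted p values of 0.011 and 0.014 (edgeR). Without siMatrin3 replicate 3 the adjusted p of IL1RAP was 0.056, and without siCTRL replicate 3 that of TNFRSF11A was 0.0561. TNFRSF1A, the main receptor of tumour necrosis factor, did not pass, with 83.5 to 96.2 TPM in siMatrin3 and 87.5 to 100.3 TPM in siCTRL. LTBR did not pass either, with 140 to 148 TPM in siMatrin3 and 148 to 159 TPM in siCTRL.

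Of the 10 ligands, 3 passed the filter on low counts and 0 passed the test (edgeR). TNF had 0 expected counts in all 3 siMatrin3 libraries and 0 to 1 in the siCTRL libraries, and IL1B had 0 to 1 in each group. Those past the filter were IL18, TNFSF12 and IL1A. IL18 had 48.3, 50.3 and 53.1 TPM in siMatrin3 against 55.1, 51.3 and 56.3 TPM in siCTRL (adjusted p = 0.263, edgeR). For TNFSF12, the gene of TWEAK, the adjusted p was 0.259 (edgeR). IL1A was low, with 15, 15 and 6 expected counts in siMatrin3 against 18, 11 and 21 in siCTRL. Of the 8 neighbours in the CXC cluster and chemokine receptors, 6 were listed at 0 in every library. They were CXCL5, CXCL6, PPBP, PF4, PF4V1 and ACKR1. CXCR2, a receptor for the 4 chemokines, had 13, 20 and 11 expected counts in siMatrin3 against 12, 15 and 12 in siCTRL. CXCR1 was too low to test, with 1, 2 and 0 expected counts in siMatrin3 against 5, 2 and 2 in siCTRL.

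Of 11 tested ubiquitin enzymes and negative regulators, 1 passed. CYLD, a deubiquitinase that restrains NF-κB signalling, had 3.19, 3.69 and 3.02 TPM in siMatrin3 against 4.87, 3.65 and 4.08 TPM in siCTRL. Its TPM overlapped at siMatrin3 replicate 2 and siCTRL replicate 2, whereas its CPM did not, and the log2 fold change was -0.29 ± 0.068 (SE, adjusted p = 0.022, edgeR). The call ended without siCTRL replicate 1 or 3 or siMatrin3 replicate 2 or 3, where the adjusted p was 0.066, 0.0584, 0.0693 and 0.102.

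Of 20 other tested targets, 3 fell and 1 rose, and 13 more, IL6 and CCL20 among them, were too low to test. CSF1, the gene of macrophage colony-stimulating factor, had 0.65, 0.57 and 0.57 TPM in siMatrin3 against 1.03, 0.89 and 1.22 TPM in siCTRL (log2 fold change -0.79 ± 0.16 SE, adjusted p = 0.0121, edgeR). PTGS2, the inducible cyclooxygenase, had 0.27, 0.24 and 0.30 TPM in siMatrin3 against 0.65, 0.62 and 0.42 TPM in siCTRL (log2 fold change -0.75 ± 0.21 SE, adjusted p = 0.047, edgeR). Both had groups apart, as BIRC3 did, but on fewer counts. CSF1 had 94, 69 and 85 expected counts in siMatrin3 against 137, 120 and 175 in siCTRL. PTGS2 had 49, 29 and 35 in siMatrin3 against 73, 63 and 54 in siCTRL. CFLAR, which encodes an inhibitor of death receptor signalling, had 7.40, 7.52 and 6.90 TPM in siMatrin3 against 8.07, 9.73 and 9.12 TPM in siCTRL (log2 fold change -0.30 ± 0.072 SE, adjusted p = 0.0256, edgeR). TNFAIP2, a gene named for its induction by tumour necrosis factor, went the other way, with 74.7, 74.4 and 76.8 TPM in siMatrin3 against 65.0, 65.1 and 66.1 TPM in siCTRL (log2 fold change 0.20 ± 0.039 SE, adjusted p = 0.0121, edgeR). The CSF1 call ended without siCTRL replicate 3 (adjusted p = 0.058) and the TNFAIP2 call without siCTRL replicate 3 (0.0541) or siMatrin3 replicate 3 (0.0522). The PTGS2 call ended without any of the 6 libraries (adjusted p = 0.0554 to 0.146) and with DESeq2 (0.102), and the CFLAR call ended without each library but siCTRL replicate 1 (0.054 to 0.114).

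**Figure D5:**
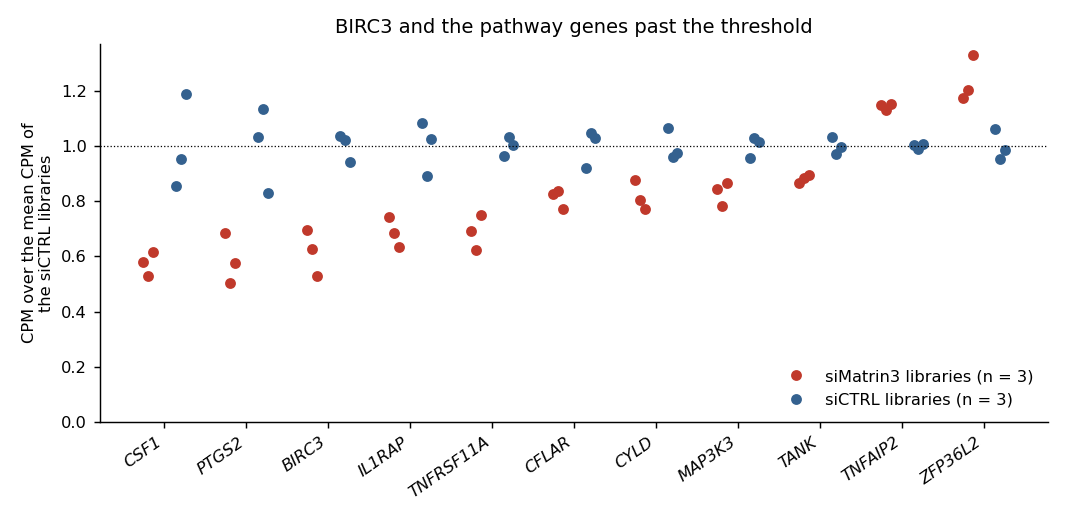
CPM of BIRC3 and the 10 pathway genes past the threshold, divided by the mean CPM of the siCTRL libraries of that gene, with a point for each library, siMatrin3 in red on the left and siCTRL in blue on the right. The siMatrin3 points of 9 genes lie below their siCTRL points and those of TNFAIP2 and ZFP36L2 above them.

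Chemokine and feedback mRNAs often carry AU-rich elements, and 12 genes of proteins that act on such elements were all tested. Of these 12, 11 had a positive log2 fold change and 1 a negative one, with a median of 0.05. ZFP36L2, which encodes a zinc finger protein that promotes decay of AU-rich mRNAs, was the only one to pass. It had 16.2, 16.8 and 18.6 TPM in siMatrin3 against 14.9, 13.6 and 13.8 TPM in siCTRL, with groups that did not overlap. The log2 fold change was 0.30 ± 0.056 (SE, adjusted p = 0.00838, edgeR), and the call was kept without each of the 6 libraries in turn. ZFP36, its better known relative, had 56.1, 35.9 and 39.7 TPM in siMatrin3 against 55.9, 37.0 and 38.4 TPM in siCTRL, where replicate 1 was the highest library of both groups.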

How the data were processed

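The 3 siMatrin3 and 3 siCTRL libraries were grouped by their labels. According to the methods, a stranded mRNA kit and paired reads were used. The submitters' processing notes name cutadapt, STAR 2.5.1, RSEM and hg19. For each library the authors deposited expected counts and TPM by gene with RSEM. The deposited FPKM values, scaled by the authors to length and library size, were not used. The deposited lengths are isoform-weighted by RSEM.

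Gene symbols came from the tables of gene names and were found for 88.3% of 56632 genes. Of 124 pathway genes, 5 had no match. After rounding, expected counts went through filterByExpr and TMM scaling and into edgeR 4.0.16 under R 4.3.3 (quasi-likelihood, two-sided, no covariates), with Benjamini-Hochberg adjustment over 16786 genes. CPM use the TMM-scaled library sizes. Weighted length was tested with limma 3.58.1 on the log2 scale in genes with at least 50 expected counts in every library. Intervals are exact Poisson intervals at 95% and cover counting error only. P-values set the difference between groups against how far libraries within a group differed, with that spread estimated in part from all genes. They cover no variation beyond these libraries of a single cell line. DESeq2 1.42.0, other scalings and filters, a transcript length offset, a replicate block, limma on log2 TPM, a threshold of 0.01, leaving out each library in turn, and leaving out replicate 1 of both groups were alternatives. The edgeR fit with and without the replicate block, DESeq2, limma with 1 added before the log2, and the length test were tried on simulated data. The other alternatives, the sum of chemokine counts and the promoter search were not.

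The 10 genes, the pathway and marker lists and the alternatives were chosen with earlier results of these data known. Named genes were the 10 targets, MATR3, RELA, NFKB1 and BIRC2, and for each list up to 4 genes past the threshold with the smallest p or, where none passed, the 2 with the smallest p. TNF, IL1A, IL1B, IL6, CCL20, CHUK, IKBKB, TNFRSF1A, LTBR, ZFP36, IER3, LIF, the CXC cluster neighbours and the antisense genes were added after their values were seen. Promoters came from RefSeq and transcripts and exons from GENCODE release 44, both on GRCh38.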

Additional observations from a re-analysis of the deposited data

How the results depend on the processing

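The number of genes called was 1849, and it was 706 with the length offset, 186 with limma on log2(TPM + 0.1), 133 with limma on log2(TPM + 1), 1216 without replicate 1 of both groups, 561 at an adjusted p under 0.01, and 759 to 1599 when any library was left out. Of the 10 genes, 1 was called lower, and 1 was when any library was left out, against 0 with limma on log2(TPM + 0.1), 0 with limma on log2(TPM + 1) and 2 with the replicate block. In that replicate block fit, 2716 genes were called and ICAM1 was the second gene (adjusted p = 0.0254, edgeR). BIRC2 (0.0146) and REL (0.0082) also passed there. The labels do not say what a replicate number stands for. Deviations of same-numbered libraries correlated at 0.177, 0.0896 and 7.21e-05, and not every library correlated best with its own number. No gene of the 10 was called higher in any alternative, and 0 passed the test of weighted length in any of 9. The summed CXCL1, CXCL2 and CXCL3 had log2 fold changes of -0.62 to -0.33 across alternatives.

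Changes near 0 that were not called changed sign. Left-out libraries gave -0.081 to 0.022 for NFKBIA, -0.032 to 0.002 for NFKB2, -0.020 to 0.065 for RELB, -0.127 to 0.004 for TNFAIP3, -0.243 to 0.205 for CXCL3, -0.053 to 0.007 for RELA, -0.031 to 0.015 for NFKB1 and -0.182 to 0.397 for CXCR2. RELB was -0.038 with the length offset, -0.069 and -0.063 with limma on log2(TPM + 0.1) and log2(TPM + 1), and -0.036 without replicate 1 of both groups, where TNFAIP3 was 0.044. NFKB1 was 0.021 with the length offset and 0.004 in both limma fits, and CXCR2 was -0.071, -0.083 and -0.020 in those 3 fits. Within left-out libraries, CXCL3 was 0.105 without siMatrin3 replicate 1, and NFKB1 was 0.003 without siCTRL replicate 1 or siMatrin3 replicate 3. The cause was not tested. The chemokines had 12 to 45 expected counts in a library, and no detection limit was computed at these counts.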

Other observations

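In some induced genes of the same lists, picked after their values were seen, replicate 1 was the extreme library of both groups. IER3, an immediate early gene that limits cell death, had 532, 418 and 418 TPM in siMatrin3 against 589, 462 and 453 TPM in siCTRL, so that replicate 1 was the highest library of each group. LIF, the gene of leukemia inhibitory factor, had 20.5, 13.1 and 16.2 TPM in siMatrin3 against 23.2, 20.7 and 19.6 TPM in siCTRL, again with replicate 1 highest in each. NFKBIA went the other way, with replicate 1 lowest in each. Adjusted p values between groups were 0.569 for IER3 and 0.0694 for LIF (edgeR), and LIF was called in 4 of 16 other fits. The labels give no date or lane, and the part of replicate 1 in the results was not tested. Without replicate 1 of both groups, BIRC3 had a log2 fold change of -0.77 and an adjusted p of 0.0136.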
